A study of Mus musculus with 8 samples.

Results

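The BCL2 family decides whether a cell's mitochondria release the factors that start apoptosis, and 8 of its members were taken by gene symbol, whatever their values: the pro-survival genes Bcl2, Bcl2l1 and Mcl1, the effectors Bax and Bak1, and the BH3-only genes Bid, Bad and Bcl2l11. The platform annotation used here gave 13 probe sets to 7 of these 8 genes, out of 12422 probe sets tested, and no probe set to Bax, which is not analysed here. Cells were mouse spleen dendritic cells that carry CD8, cultured for 16 or 4 hours with IFN-γ at 200 U/ml or in medium alone, and their RNA was measured on Affymetrix MG-U74Av2 arrays. The groups were IFN-γ for 16 hours, medium for 16 hours, IFN-γ for 4 hours and medium for 4 hours, with 2 arrays each. All donor mice were female DBA/2J of 60 days and had received 10 µg of Flt3-L, a growth factor that expands dendritic cells, for 9 days, the mice behind the medium groups included. Nothing in the labels ties the 2 arrays of a group to different mice or cultures. P-values therefore set a difference only against the spread of replicate arrays. That spread may be technical, so variation between mice or cultures may not be covered.

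Pro-survival family proteins hold the effectors Bax and Bak1 in check at the outer mitochondrial membrane. BH3-only proteins carry the death signal: Bcl2l11, also called Bim, binds all the pro-survival proteins, Bad binds Bcl2 and Bcl2l1 but not Mcl1, and Bid is cut by caspase-8 after death receptors are engaged. In dendritic cells the balance between Bcl2 and Bcl2l11 is known to set lifespan, and the Mcl1 protein turns over quickly, so that it needs continued synthesis.

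The RefSeq promoter table (build GRCm38.p6, 250 bases before to 50 after each start) held all 7 measured genes, in 11 windows. Both strands were searched for short patterns. None of the 11 windows held the core of the interferon-stimulated response element, GAAA on each side of any 2 bases (3.44% of 32851 promoters in the table), or TGANTCA, the AP-1 pattern (7.81%). A loose NF-κB pattern, GGG at one end and CC at the other of 10 bases, stood in 9 of the 11 windows, the exceptions being 2 of the 3 Bcl2l1 windows, and in 50.8% of all promoters. Overlapping matches were counted each. A match describes letters and is not a binding site, and these windows do not cover more distant elements. The 250 bases before both Bcl2l11 starts and the Bak1 start are shown because these genes carried the differences described further on, at chr2:128125788-128126037 (plus strand), chr2:128127325-128127574 (plus strand) and chr17:27028628-27028877 (minus strand), with matches to the loose NF-κB pattern on either strand in capitals.
Bcl2l11, upstream start: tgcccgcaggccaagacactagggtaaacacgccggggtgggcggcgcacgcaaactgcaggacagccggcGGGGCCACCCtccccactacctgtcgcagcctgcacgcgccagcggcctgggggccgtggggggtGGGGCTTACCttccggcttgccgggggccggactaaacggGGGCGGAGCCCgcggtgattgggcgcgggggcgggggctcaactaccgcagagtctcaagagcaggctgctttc
Bcl2l11, downstream start: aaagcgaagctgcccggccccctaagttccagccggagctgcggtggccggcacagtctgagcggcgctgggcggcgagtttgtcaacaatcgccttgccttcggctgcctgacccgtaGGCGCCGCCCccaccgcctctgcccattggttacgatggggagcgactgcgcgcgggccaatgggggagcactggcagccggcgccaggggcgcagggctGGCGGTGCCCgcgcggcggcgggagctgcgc
Bak1: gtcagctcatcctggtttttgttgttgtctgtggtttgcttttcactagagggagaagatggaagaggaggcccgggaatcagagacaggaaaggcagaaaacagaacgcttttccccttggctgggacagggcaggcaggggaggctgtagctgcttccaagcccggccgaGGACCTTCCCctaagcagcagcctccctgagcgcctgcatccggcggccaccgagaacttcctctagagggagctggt

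Values are log2 of the deposited intensity, so that a difference of 1 is a doubling. The median intensity of an array lay between 51.3 and 53.67. The median of the 15 antisense control probe sets, which should find no target, lay between 5.49 and 5.94 on the log2 scale, or 44.93 and 61.18 in intensity. This control level was thus near the middle of all probe sets tested. Of the 13 family probe sets, 8 were above that control median on all 8 arrays, Bid 98433_at on 6, Bad 99670_at on 2, and Bcl2l1 99026_at, Bcl2l11 99418_at and Bcl2l11 99419_g_at on 0. For probe sets at or under this level a change in RNA may be understated, and its size is uncertain. Every gene except Bid, that is Mcl1, Bcl2, Bcl2l1, Bak1, Bad and Bcl2l11, had at least 1 probe set above it on all 8 arrays. This is not a test of whether a transcript was present. For Bad 161500_i_at the margin was thin on array 1 of medium at 4 hours, with 5.795 beside a control median of 5.785.

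The labelled cell type was compared with its markers. Cd8a had 8.77 and 9.04 with IFN-γ and 8.74 and 8.85 in medium at 16 hours, and 8.90 and 9.08 with IFN-γ and 8.83 and 8.88 in medium at 4 hours. Itgax, which encodes CD11c, had 6.40 and 6.19 with IFN-γ and 6.40 and 6.45 in medium at 16 hours, and 6.13 and 6.36 with IFN-γ and 6.51 and 6.44 in medium at 4 hours. Both were above the antisense median on every array. They are 2 of the 12 CD8+ dendritic cell markers measured, of which 2 averaged below that median. These values do not measure how pure the preparation was. Markers of other spleen cells were measured too: Ighm, the immunoglobulin heavy chain of B cells, had 12.31 and 12.36 with IFN-γ and 12.31 and 12.26 in medium at 16 hours, and 12.10 and 12.05 with IFN-γ and 12.13 and 12.09 in medium at 4 hours. In bulk RNA, fewer cells of a type and less RNA per cell cannot be told apart, and values below are for the whole preparation.

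**Figure D1:**
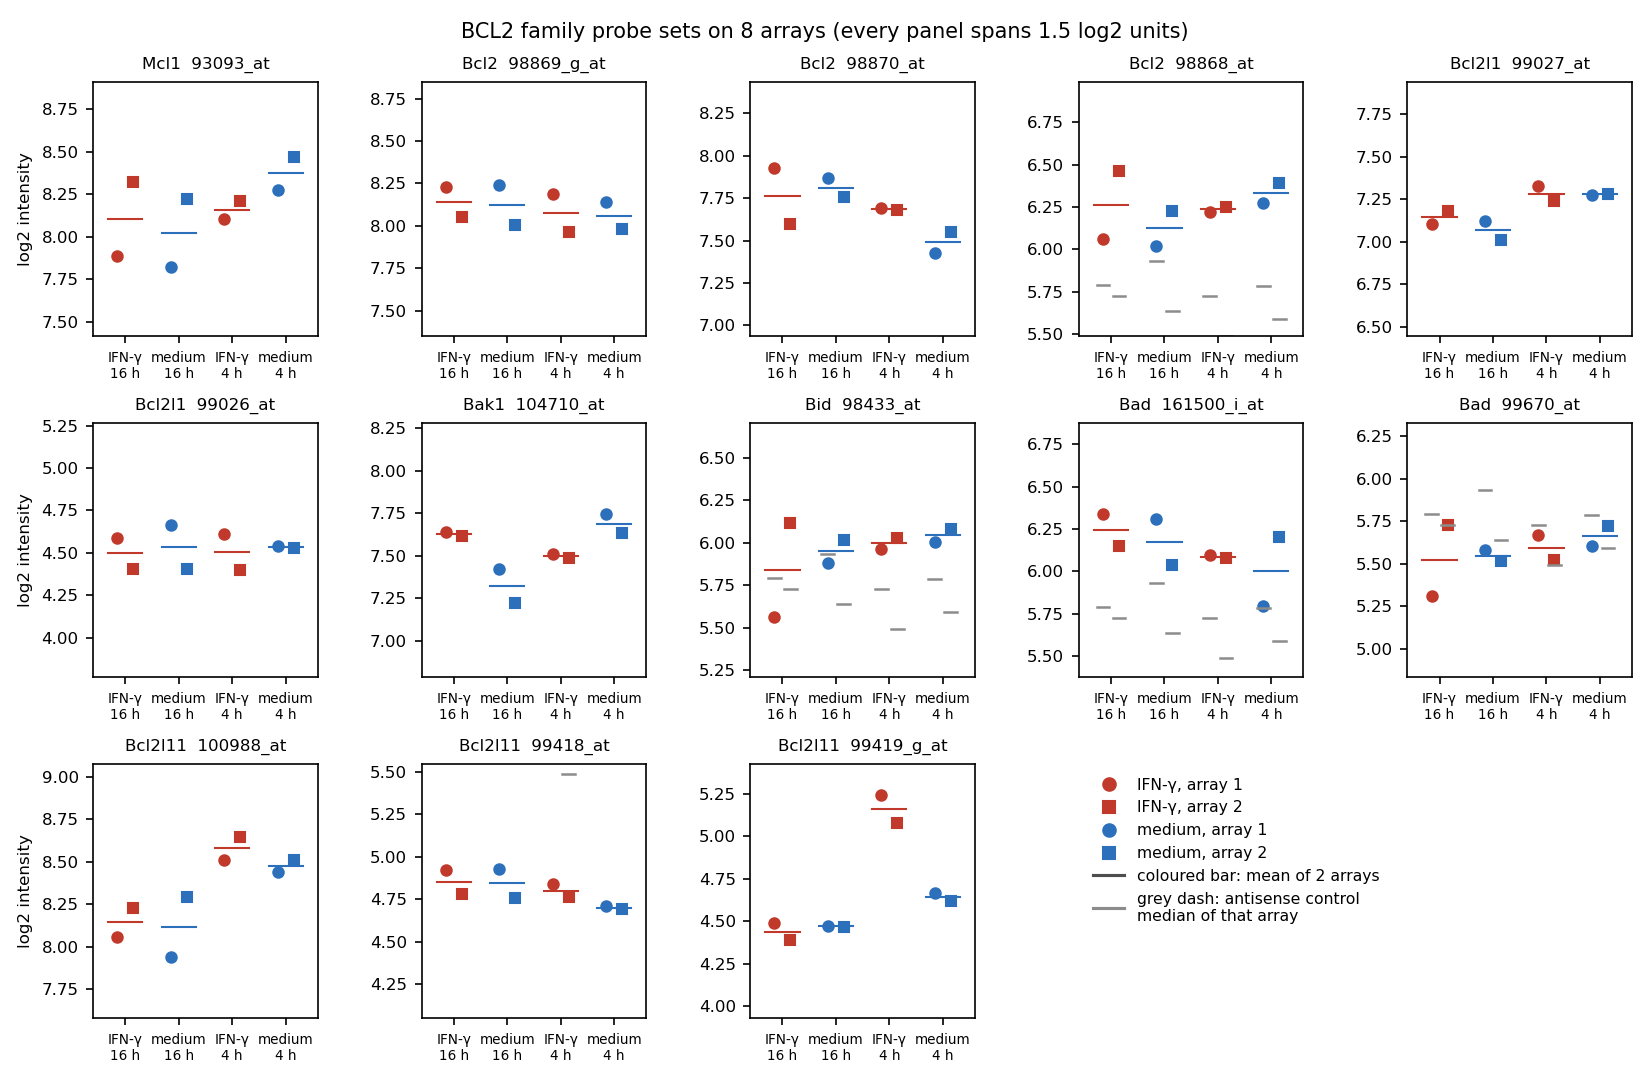
Log2 intensity (vertical axis) of each of the 13 family probe sets on each of the 8 arrays, by group (horizontal axis), with circles for array 1, squares for array 2, coloured bars for the mean of 2 arrays and grey dashes for the antisense control median of that array where it falls inside the panel. Every panel spans 1.5 log2 units; the ranges over all arrays run from 0.24 for Bcl2l11 99418_at to 0.86 for Bcl2l11 99419_g_at.

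Mcl1 protects the cell by holding Bak1 and Bcl2l11, and its 1 probe set (93093_at) had 7.88 and 8.32 with IFN-γ and 7.82 and 8.22 in medium at 16 hours, and 8.10 and 8.21 with IFN-γ and 8.28 and 8.47 in medium at 4 hours. The highest was a medium array at 4 hours, the next an IFN-γ array at 16 hours, and both 16-hour arrays of number 1 were the lowest. Both 16-hour arrays of number 2 lay above both IFN-γ arrays at 4 hours, so Mcl1 differed at 16 hours more between replicate arrays than between treatments.

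Bcl2 itself had 3 probe sets. The first, 98869_g_at, had 8.23 and 8.05 with IFN-γ and 8.24 and 8.00 in medium at 16 hours, and 8.19 and 7.96 with IFN-γ and 8.14 and 7.98 in medium at 4 hours; array 1 was above array 2 in every group, and the groups overlapped. The second, 98870_at, had 7.93 and 7.60 with IFN-γ and 7.87 and 7.76 in medium at 16 hours, and 7.69 and 7.68 with IFN-γ and 7.43 and 7.55 in medium at 4 hours; the medium arrays at 4 hours were the lowest of the 8. The third, 98868_at, had 6.06 and 6.46 with IFN-γ and 6.02 and 6.22 in medium at 16 hours, and 6.22 and 6.25 with IFN-γ and 6.27 and 6.39 in medium at 4 hours, with the widest gap inside the IFN-γ group at 16 hours.

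The 3 Bcl2 probe sets did not follow each other. Across the 8 arrays, Pearson's r was 0.47 between 98869_g_at and 98870_at, but -0.70 between 98869_g_at and 98868_at and -0.78 between 98870_at and 98868_at, as a description of arrays that share preparation and replicate number. No single Bcl2 direction can be read from them.

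Bcl2l1 encodes Bcl-xL, a pro-survival protein of the outer mitochondrial membrane. Its brighter probe set, 99027_at, had 7.11 and 7.18 with IFN-γ and 7.12 and 7.01 in medium at 16 hours, and 7.33 and 7.24 with IFN-γ and 7.28 and 7.28 in medium at 4 hours, and every 16-hour array lay below every 4-hour array. The dim probe set 99026_at had 4.59 and 4.41 with IFN-γ and 4.66 and 4.41 in medium at 16 hours, and 4.61 and 4.4 with IFN-γ and 4.54 and 4.53 in medium at 4 hours, below the antisense median on every array, and the 2 had r = 0.19.

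Bak1, which with Bax forms the pores of the outer mitochondrial membrane, had 7.64 and 7.62 with IFN-γ and 7.42 and 7.22 in medium at 16 hours, and 7.51 and 7.49 with IFN-γ and 7.74 and 7.63 in medium at 4 hours. Both medium arrays at 16 hours were the lowest of the 8 and a medium array at 4 hours was the highest. The 4 IFN-γ arrays spanned a narrower range.

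Bid, the link from death receptors to mitochondria, had 5.56 and 6.12 with IFN-γ and 5.88 and 6.02 in medium at 16 hours, and 5.96 and 6.03 with IFN-γ and 6.0 and 6.08 in medium at 4 hours, and the IFN-γ group at 16 hours alone spanned the whole range. Bad, which is inactivated by survival kinases, had 6.34 and 6.15 with IFN-γ and 6.31 and 6.04 in medium at 16 hours, and 6.09 and 6.08 with IFN-γ and 5.79 and 6.21 in medium at 4 hours on 161500_i_at. Its second probe set, 99670_at, had 5.31 and 5.73 with IFN-γ and 5.58 and 5.52 in medium at 16 hours, and 5.67 and 5.52 with IFN-γ and 5.60 and 5.72 in medium at 4 hours. The Bad groups overlapped in most comparisons, and r between its probe sets was -0.27.

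Bcl2l11 had the widest range of the family. Its brightest probe set, 100988_at, had 8.06 and 8.23 with IFN-γ and 7.94 and 8.29 in medium at 16 hours, and 8.51 and 8.65 with IFN-γ and 8.44 and 8.51 in medium at 4 hours; every 16-hour array lay below every 4-hour array. The probe set 99419_g_at had 4.49 and 4.39 with IFN-γ and 4.47 and 4.47 in medium at 16 hours, and 5.25 and 5.08 with IFN-γ and 4.67 and 4.62 in medium at 4 hours, and both IFN-γ arrays at 4 hours stood above the other 6. The third, 99418_at, had 4.92 and 4.78 with IFN-γ and 4.93 and 4.76 in medium at 16 hours, and 4.84 and 4.76 with IFN-γ and 4.71 and 4.69 in medium at 4 hours, the narrowest range of the 13. Across the arrays, 99419_g_at had r = 0.72 with 100988_at and -0.10 with 99418_at, while 100988_at and 99418_at had r = -0.74.

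The main question of the design was whether IFN-γ, a cytokine made by T cells and NK cells, altered gene expression. No pro-survival gene, effector or BH3-only gene of the family passed the test for IFN-γ at either time. By limma over all 12422 probe sets, with Benjamini-Hochberg adjustment and a call at an adjusted p under 0.05, 0 of the 13 family probe sets were called for IFN-γ against medium at 16 hours, where 0.258% of all probe sets were called, and 1 had an unadjusted p under 0.05 (3.43% of all). At 4 hours 0 of 13 were called, against 0.258% of all probe sets, and again 1 had an unadjusted p under 0.05 (4.02% of all). The median difference of the family was 0.0202 at 16 hours and 0.0049 at 4 hours, beside -0.0032 at 16 hours and -0.0076 at 4 hours over all probe sets.

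Averaged over both times, 0 of 13 were called (0.475% of all probe sets) and 1 had an unadjusted p under 0.05 (4.34% of all). That 1 was Bcl2l11 99419_g_at, which differed by 0.24 (interval 0.07 to 0.42, unadjusted p = 0.0123, limma adjusted p = 0.581, and 0.14 with the block). The other 12 intervals of the mean effect included 0. Mcl1 differed by -0.07 (interval -0.35 to 0.22), Bcl2 98869_g_at by 0.02 (-0.20 to 0.24), Bcl2l1 99027_at by 0.04 (-0.13 to 0.21) and Bak1 by 0.06 (-0.12 to 0.24). Bid differed by -0.08 (-0.35 to 0.19), Bad 161500_i_at by 0.08 (-0.17 to 0.33) and Bcl2l11 100988_at by 0.07 (-0.16 to 0.29). All 13 intervals of the mean effect lay inside a 1.5-fold change, the widest reaching 1.27-fold down and 1.34-fold up. All 13 also did so at 16 hours and 11 of 13 at 4 hours, where the intervals of Mcl1 and Bcl2l11 99419_g_at reached further. On the brightest probe set of each gene, 7 of 7 did so for the mean effect, reaching 1.27-fold down and 1.26-fold up. At 16 hours 7 of 7 did so and at 4 hours 6 of 7. These limits are for measured intensity, and for probe sets at or under the antisense median they do not bound the change in RNA. For 5 of 13 the mean effect joins differences of opposite sign at the 2 times: Bak1, Mcl1, Bcl2 98870_at, Bcl2 98868_at and Bcl2l11 99419_g_at.

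**Figure D2:**
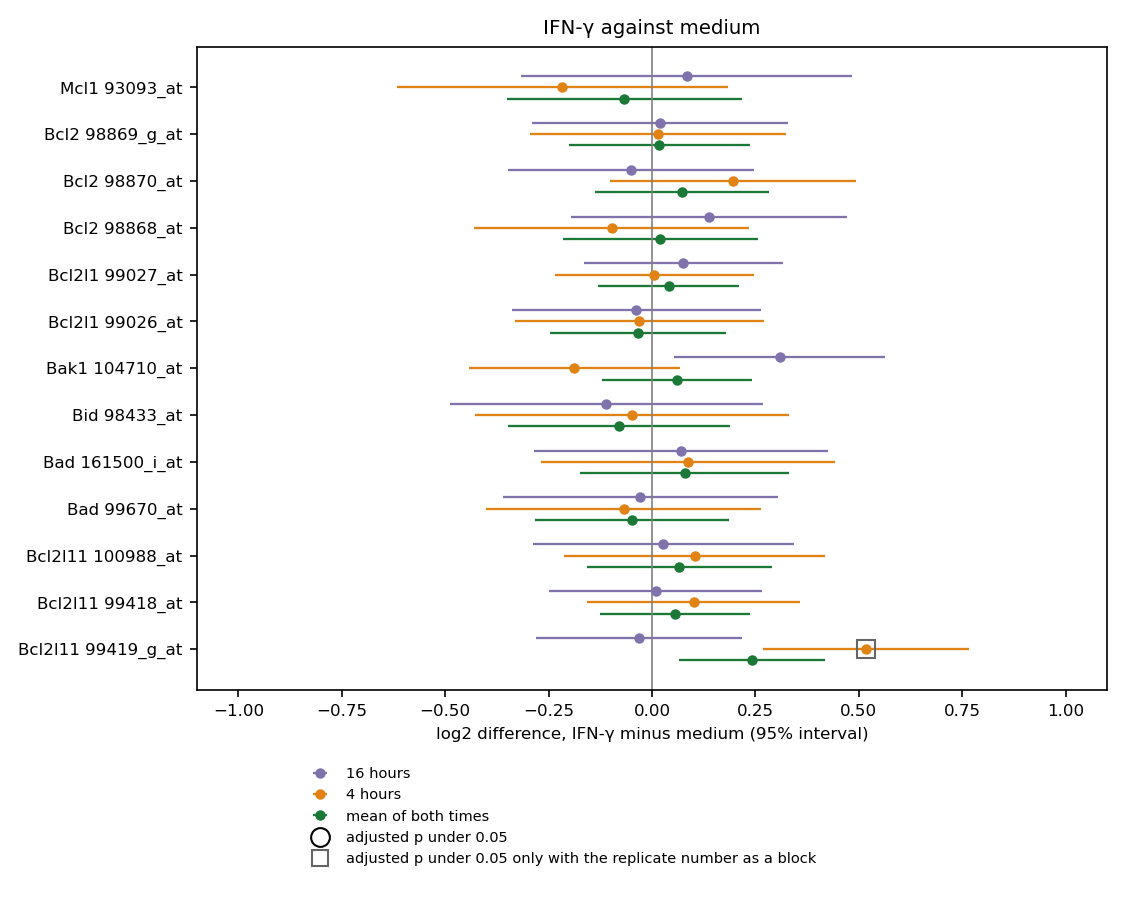
Log2 difference of IFN-γ minus medium (horizontal axis) with its 95% interval for each family probe set (rows), at 16 hours, at 4 hours and as the mean of both times. No probe set was called without the replicate block; the square marks Bcl2l11 99419_g_at at 4 hours, called only with it.

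The largest IFN-γ difference in the family was that of Bcl2l11 99419_g_at at 4 hours. It had 5.25 and 5.08 with IFN-γ and 4.67 and 4.62 in medium, a difference of 0.52 (SE 0.11, interval 0.27 to 0.77, limma adjusted p = 0.169). When the model also held the replicate number as a block, the adjusted p was 0.0244, in a fit that called 1.26% of all probe sets, 1.09% higher, and the difference was 0.58 between the arrays numbered 1 and 0.45 between those numbered 2. The same gene's brighter probe set 100988_at had 8.51 and 8.65 with IFN-γ and 8.44 and 8.51 in medium, a difference of 0.10 (SE 0.14, limma adjusted p = 1). Its groups did not overlap either, but the difference was smaller than its standard error.

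At 16 hours Bak1 had 7.64 and 7.62 with IFN-γ and 7.42 and 7.22 in medium, a difference of 0.31 (SE 0.11, interval 0.05 to 0.56, unadjusted p = 0.0229, limma adjusted p = 1, and 0.318 with the block). At 4 hours it had 7.51 and 7.49 with IFN-γ and 7.74 and 7.63 in medium, a difference of -0.19 (SE 0.11, limma adjusted p = 1). Both IFN-γ arrays of Bak1 thus lay above both medium arrays at 16 hours and below both at 4 hours, which no other family probe set showed, and 1.65% of all probe sets showed the same order. The change of its IFN-γ effect, 16 hours minus 4 hours, was 0.50 (SE 0.16, interval 0.14 to 0.86, unadjusted p = 0.0123, limma adjusted p = 1). None of the 13 was called for that change, where 0% of all probe sets were called by limma and 2.84% had an unadjusted p under 0.05; the replicate block called 0.242%, with none of the family.

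For Bcl2l11 99419_g_at the change of the IFN-γ effect, 16 hours minus 4 hours, was -0.55 (SE 0.16, interval -0.90 to -0.20, unadjusted p = 0.00642, limma adjusted p = 0.874, and 0.175 with the block). Its IFN-γ difference was -0.03 at 16 hours, against 0.52 at 4 hours. An IFN-γ effect that differs with time is thus not shown for any family member.

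Counting only whether both arrays of a group lay beyond both of the other, IFN-γ and medium did not overlap for 1 of 13 probe sets at 16 hours (18.9% of all probe sets) and for 7 of 13 at 4 hours (33.4%). The 7 were 4 above medium, Bcl2 98870_at and all 3 of Bcl2l11 (15.4% of all probe sets lay above), and 3 below it, Mcl1, Bcl2 98868_at and Bak1 (17.9% below). The medium arrays at 4 hours differed from the other 6 in a quality measure: the ratio of 3′ to 5′ Actb probe sets was 2.04 and 2.20 there, against 1.47 and 1.65 with IFN-γ at 4 hours and 1.57 to 1.68 at 16 hours. Its part in the 4-hour differences and in those over time in medium was not tested.

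**Figure D3:**
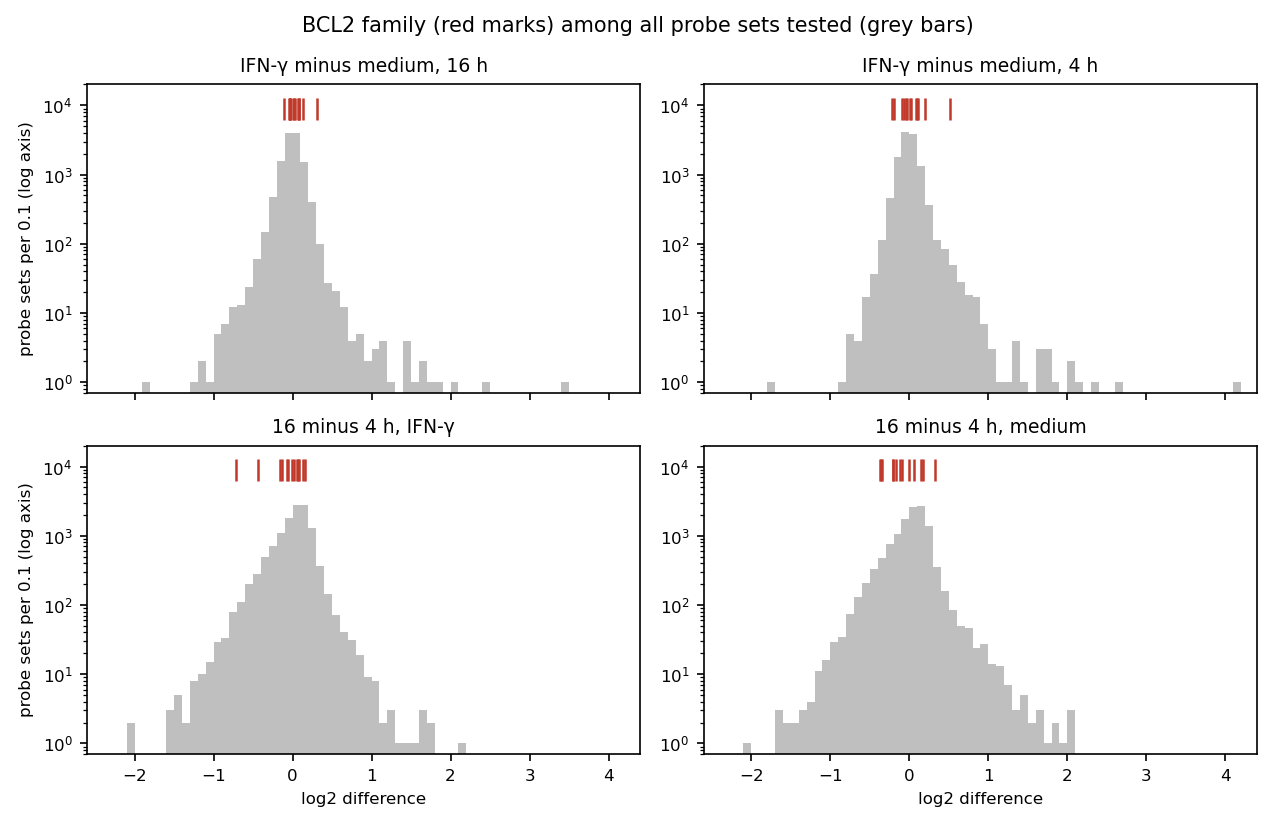
Number of probe sets per 0.1 log2 units (log vertical axis) against the log2 difference (horizontal axis) for IFN-γ minus medium at 16 and at 4 hours and for 16 minus 4 hours with IFN-γ and in medium, with the 13 family probe sets as red marks. Family differences run from -0.11 to 0.31 and from -0.22 to 0.52 for IFN-γ, and from -0.72 to 0.16 and from -0.37 to 0.32 over time.

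The same arrays also compare 16 with 4 hours in culture, where Bcl2l11 and, in medium, Bak1 had the largest differences of the family and 1 passed the test. With IFN-γ, 1 of 13 probe sets was called for 16 against 4 hours, lower, where 2.12% of all probe sets were called and 1.3% were called lower. In medium 0 of 13 were called, against 4.27% of all probe sets, and 3 had an unadjusted p under 0.05 (16.2% of all). The replicate block called 2 of 13 under each condition, all lower. It called 10.1% of all probe sets with IFN-γ, 6.94% lower, and 12.6% in medium, 8.09% lower.

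The called probe set was Bcl2l11 99419_g_at, with 4.49 and 4.39 at 16 hours and 5.25 and 5.08 at 4 hours in IFN-γ. It fell by 0.72 (SE 0.11, interval -0.97 to -0.47, unadjusted p = 9.72e-05, limma adjusted p = 0.0137). In medium it had 4.47 and 4.47 at 16 hours and 4.67 and 4.62 at 4 hours, a difference of -0.17 (SE 0.11, limma adjusted p = 0.495). The call with IFN-γ was made in 13 of the 16 alternatives that tested this probe set, with adjusted p between 0.00118 and 0.175. It was lost without array 1 of IFN-γ at 4 hours (adjusted p = 0.175), without array 2 of that group (0.084) and in a fit of only the 4 arrays compared (0.0596). Alternatives that left out only a medium array kept all 4 arrays compared. Those that left out an IFN-γ array kept 1 array in its group. Bcl2l11 99419_g_at was dimmer than the antisense median on every array, and the mean of the 3 Bcl2l11 probe sets differed by -0.37 (limma adjusted p = 0.0736 over gene means). The equally dim 99418_at went the other way, by 0.05 with IFN-γ (SE 0.11, limma adjusted p = 0.861) and by 0.14 in medium (SE 0.11, limma adjusted p = 0.591).

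Bcl2l11 100988_at, above the antisense median on all 8 arrays, had lower values at 16 hours under both conditions, not called in the main fit but called with the block. With IFN-γ it had 8.06 and 8.23 at 16 hours and 8.51 and 8.65 at 4 hours, a difference of -0.43 (SE 0.14, interval -0.75 to -0.12, limma adjusted p = 0.177, and 0.0202 with the block). In medium it had 7.94 and 8.29 at 16 hours and 8.44 and 8.51 at 4 hours, a difference of -0.36 (SE 0.14, interval -0.67 to -0.04, limma adjusted p = 0.233, and 0.0406 with the block). All 4 differences between arrays of the same number and condition were negative, from -0.50 to -0.21.

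**Figure D4:**
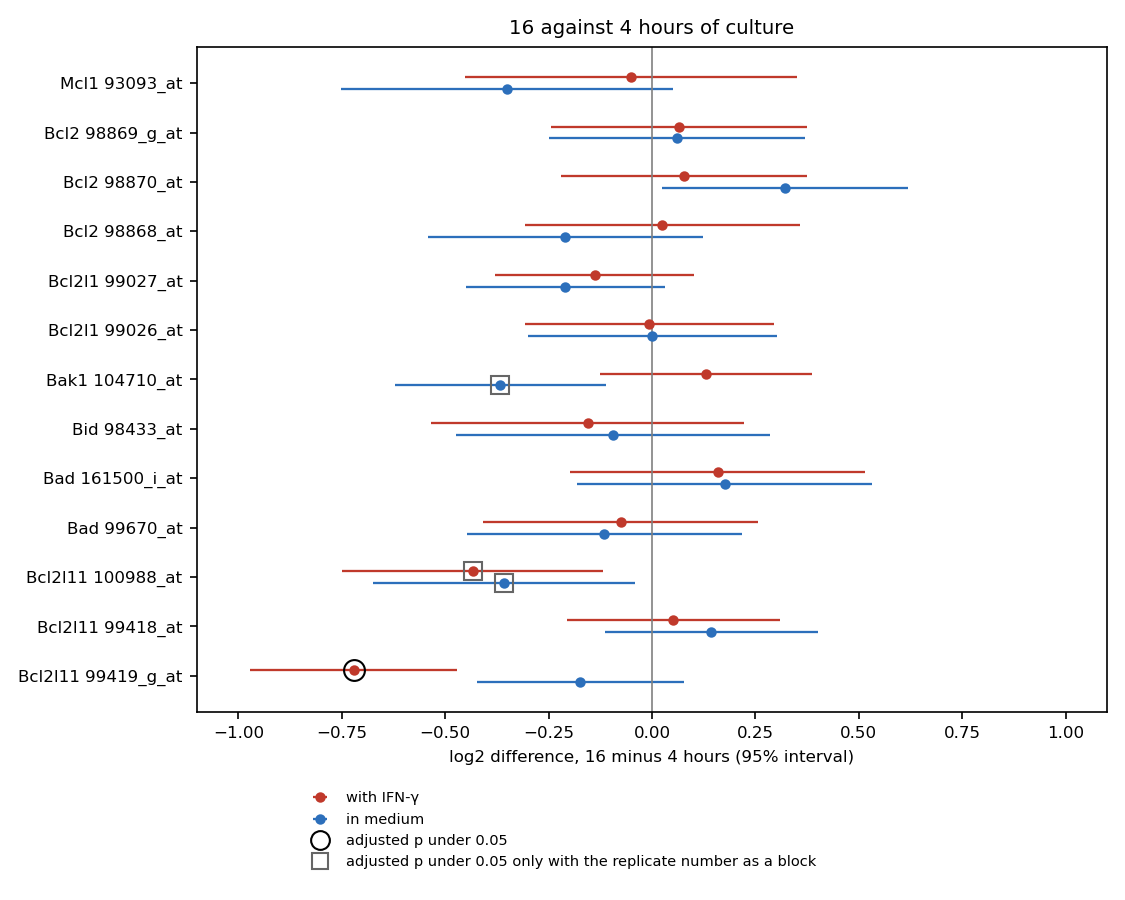
Log2 difference of 16 minus 4 hours (horizontal axis) with its 95% interval for each family probe set (rows), with IFN-γ and in medium; circles mark an adjusted p under 0.05 and squares one under 0.05 only with the replicate block. Bcl2l11 99419_g_at with IFN-γ (-0.72) is the 1 circle, and Bcl2l11 100988_at under both conditions and Bak1 in medium are the squares.

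In medium Bak1 had 7.42 and 7.22 at 16 hours and 7.74 and 7.63 at 4 hours, a difference of -0.37 (SE 0.11, interval -0.62 to -0.11, unadjusted p = 0.00989, limma adjusted p = 0.124, and 0.0273 with the block). With IFN-γ it had 7.64 and 7.62 at 16 hours and 7.51 and 7.49 at 4 hours, a difference of 0.13 (SE 0.11, limma adjusted p = 0.655). The difference between these changes is the same quantity as the change of the IFN-γ effect given above, which was not called.

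Mcl1 differed by -0.35 in medium (SE 0.18, interval -0.75 to 0.05, limma adjusted p = 0.379, and 0.0587 with the block) and by -0.05 with IFN-γ (SE 0.18, limma adjusted p = 0.914). In medium both numbers showed it, with -0.45 and -0.25, whereas with IFN-γ the arrays numbered 1 gave -0.22 and those numbered 2 gave 0.12. Without both 16-hour arrays of number 2, an alternative added after the data were seen, Mcl1 differed by -0.55 in medium. There Bcl2l11 100988_at differed by -0.54 in medium and by -0.52 with IFN-γ, and Bid by -0.43 with IFN-γ. Each 16-hour group then kept 1 array, so only effect sizes are given. Over all alternatives, Mcl1 in medium ran from -0.55 to -0.15. Bcl2l11, the mean per gene included, ran from -0.54 to -0.13 in medium and from -0.52 to -0.35 with IFN-γ. Bid with IFN-γ ran from -0.43 to 0.12, so its sign was not stable.

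The remaining pro-survival probe sets split. In medium Bcl2 98870_at differed by 0.32 (SE 0.13, interval 0.02 to 0.62, unadjusted p = 0.0366, limma adjusted p = 0.258), while Bcl2 98868_at differed by -0.21 (SE 0.15, limma adjusted p = 0.536) and 98869_g_at by 0.06. Bcl2l1 99027_at differed by -0.21 in medium (SE 0.11, limma adjusted p = 0.380) and by -0.14 with IFN-γ (limma adjusted p = 0.612), with no overlap between times in either. Bid and both Bad probe sets differed by between -0.16 and 0.18 over time under both conditions, and none passed. The family median over time was -0.01 with IFN-γ and -0.12 in medium, beside 0.05 over all probe sets under both. The arrays of the 2 times did not overlap for 5 of 13 probe sets with IFN-γ (39.3% of all probe sets) and for 9 of 13 in medium (51.6%).

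The preparation changed with time as well. Of the 14 macrophage and monocyte markers measured, 9 rose and 1 fell at 16 against 4 hours with IFN-γ, and 11 rose and 1 fell in medium. Their summed intensity was 3732 and 4606 with IFN-γ and 5326 and 6236 in medium at 16 hours, and 1788 and 1836 with IFN-γ and 2454 and 2596 in medium at 4 hours. Lyz2, Csf1r and Cd68 were all above the antisense median, and 4 of the 14 averaged below it. The 12 CD8+ dendritic cell markers measured summed to between 13517 and 14812 at 16 hours and between 14418 and 15195 at 4 hours. Such a sum is carried by its brightest genes and does not show that each marker, or the share of these cells, stayed level. At an unadjusted limma p under 0.05, 5 of the 12 were lower at 16 hours under each condition, and 1 was higher with IFN-γ. The part of these markers in the differences of Bcl2l11, Bak1 and Mcl1 over time was not tested.

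Markers of other cells were counted in the same way. Over time with IFN-γ, 1 of 12 CD8+ dendritic cell markers fell, 2 of 9 B cell markers rose and 2 of 6 erythroid markers fell. In medium 1 of 12 CD8+ dendritic cell markers fell, 1 of 9 B cell and 1 of 6 CD8- dendritic cell markers rose, and 1 of 9 neutrophil and 2 of 6 erythroid markers fell. Of 7 T cell, 6 NK cell and 4 plasmacytoid dendritic cell markers, 0 were called by limma over time under either condition. At an unadjusted p under 0.05 there were 1 T cell, 1 NK cell and 1 plasmacytoid marker with IFN-γ and 2, 1 and 1 in medium. At that p, 8 of 9 B cell markers were higher with IFN-γ and 4 of 9 in medium, and 5 of 12 CD8+ dendritic cell markers were lower under each condition, with 1 higher with IFN-γ.

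The replicate block called more of these markers over time. With IFN-γ it called 7 of 9 B cell markers higher, 4 of 12 CD8+ dendritic cell markers lower and 1 higher, 2 of 6 CD8- dendritic cell markers in each direction, 10 of 14 macrophage markers higher and 2 lower, 1 plasmacytoid marker higher, 1 T cell marker lower and 2 erythroid markers lower. In medium it called 3 of 9 B cell markers higher, 5 of 12 CD8+ dendritic cell markers lower, 2 of 6 CD8- dendritic cell markers in each direction, 11 of 14 macrophage markers higher and 1 lower, 1 NK cell marker higher, and 1 T cell, 1 neutrophil and 2 erythroid markers lower.

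For IFN-γ against medium, macrophage markers were the list with the most calls. Limma called 1 of 14 lower at 16 hours, 0 at 4 hours and 3 lower for the mean of both times, and the block called 4, 3 and 6 lower. At an unadjusted p under 0.05, 6 were lower at 16 hours, and 4 lower and 1 higher at 4 hours. For the mean effect, 7 were lower and 1 higher at that p. Limma also called 1 of 12 CD8+ dendritic cell markers higher at 16 hours and for the mean effect, and none of the other lists. Beyond macrophage markers, the block called CD8+ and CD8- dendritic cell markers, at most 3 of a list in any of these comparisons. The part of these markers in the IFN-γ differences of the family was not tested.

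The probe sets of other genes whose levels followed Bcl2l11 99419_g_at most closely over the 8 arrays, among 5568 candidates above the antisense median, were 1 each of Pim1 (99384_at, r = 0.97), Lima1 (94561_at, r = 0.97) and Fnbp1 (98729_at, r = 0.94). They share arrays, preparation and replicate numbers with it, and were picked for likeness, so these values are a description. Pim1 99384_at had 7.40 and 7.37 with IFN-γ and 7.33 and 7.22 in medium at 16 hours, and 8.45 and 8.12 with IFN-γ and 7.67 and 7.37 in medium at 4 hours. Lima1, an actin-binding protein, had 7.68 and 7.67 with IFN-γ and 7.68 and 7.53 in medium at 16 hours, and 8.63 and 8.45 with IFN-γ and 8.07 and 8.01 in medium at 4 hours. In both, the IFN-γ arrays at 4 hours were the highest 2 of 8, as in Bcl2l11. Fnbp1 had 6.21 and 6.10 with IFN-γ and 6.19 and 6.29 in medium at 16 hours, and 6.65 and 6.44 with IFN-γ and 6.34 and 6.22 in medium at 4 hours, with the same 2 arrays highest and a smaller range.

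**Figure D5:**
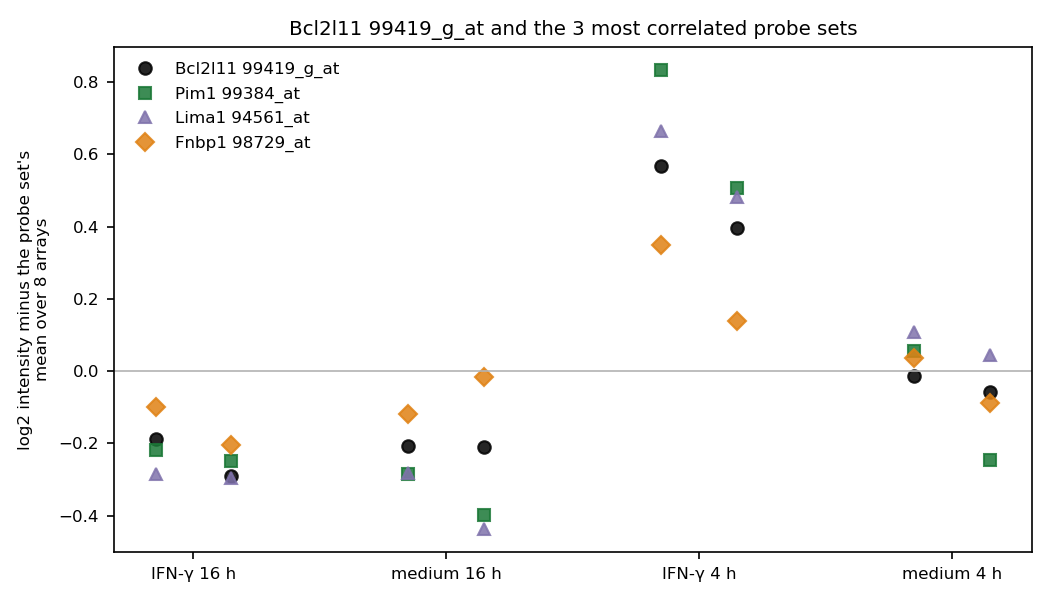
Log2 intensity minus the probe set's own mean over 8 arrays (vertical axis) by array and group (horizontal axis) for Bcl2l11 99419_g_at and the 3 probe sets most correlated with it. All 4 have their highest values on the 2 IFN-γ arrays at 4 hours.

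Around the family, 70 of 94 listed genes were measured, each by its brightest probe set, in 4 lists: other BCL2 relatives, the apoptosome with the inhibitor of apoptosis proteins, the death receptor pathway upstream of Bid, and regulators of the family's genes and proteins. For IFN-γ against medium, 0 of the 70 were called by limma at either time, with 5 at 16 hours (3.43% of all probe sets) and 7 at 4 hours (4.02% of all) at an unadjusted p under 0.05. The replicate block called 1 at 16 hours (0.845% of all probe sets), Flt3, which encodes the Flt3-L receptor and is also in the CD8+ dendritic cell list (-0.47, adjusted p = 0.0386). At 4 hours it called 2 (1.26% of all), both in the death receptor list: Daxx, which binds the death receptor Fas (0.48, adjusted p = 0.0317), and Tnfrsf1b, a TNF receptor (-0.57, adjusted p = 0.0138).

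Over time every gene of these lists that limma called fell, 5 of 70 with IFN-γ (2.12% of all probe sets were called in either direction) and 6 of 70 in medium (4.27%). The listed genes were read on their brightest probe sets, whereas these shares also cover dim ones. With the dimmest 40% left out, fewer probe sets were tested and more were called. The counts were 327 with IFN-γ (204 lower), against 263, and 603 in medium (390 lower), against 531. An excess in these lists over probe sets of like brightness was not tested. The replicate block called 17 lower and 3 higher with IFN-γ (10.1% of all probe sets), and 20 lower and 2 higher in medium (12.6%). Of the 8 other BCL2 relatives measured, such as Bcl2l2, a pro-survival protein, and Bok, an effector relative, 0 were called by limma under either condition, and 1 under each had an unadjusted p under 0.05 (13.7% of all probe sets with IFN-γ and 16.2% in medium). The block called Bnip3, a mitochondrial BH3-like protein, higher with IFN-γ (0.42, adjusted p = 0.0331). The list's median difference was 0.07 with IFN-γ and 0.08 in medium, beside 0.05 for all probe sets.

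The 29 regulators measured held 3 falls with IFN-γ and 4 in medium by limma, with list medians of -0.20 with IFN-γ and -0.33 in medium, beside 0.05 for all probe sets. Pim1, a survival kinase that phosphorylates Bad, had on its brightest probe set 9.81 and 9.80 with IFN-γ and 9.57 and 9.60 in medium at 16 hours, and 10.44 and 10.41 with IFN-γ and 10.42 and 10.48 in medium at 4 hours. It fell by 0.62 with IFN-γ (SE 0.10, limma adjusted p = 0.0189) and by 0.86 in medium (SE 0.10, limma adjusted p = 0.00264), with no overlap between times. Its 4-hour arrays with IFN-γ and in medium lay together here, unlike on 99384_at, so the 2 Pim1 probe sets differ in their order at 4 hours.

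NF-κB drives Bcl2l1 and other survival genes. Relb, one of its subunits, fell by 0.70 with IFN-γ (SE 0.14, limma adjusted p = 0.0361) and by 0.72 in medium (SE 0.14, adjusted p = 0.0221). Rela, the p65 subunit, fell by 0.62 in medium (adjusted p = 0.0322), and differed by -0.37 with IFN-γ (adjusted p = 0.210). Nfkbia, the inhibitor that NF-κB itself induces, fell by 0.55 in medium (adjusted p = 0.0404), and differed by -0.58 with IFN-γ (adjusted p = 0.0502). Flt3 fell by 0.52 with IFN-γ (adjusted p = 0.0385), and differed by -0.33 in medium (adjusted p = 0.135).

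Of 15 death receptor genes measured, Traf1, an adaptor of TNF receptors, was the 1 called by limma, and the list's median was -0.06 with IFN-γ and 0.07 in medium. It had 8.89 and 9.03 with IFN-γ and 8.93 and 8.89 in medium at 16 hours, and 9.73 and 9.63 with IFN-γ and 9.75 and 9.62 in medium at 4 hours, fell by 0.72 with IFN-γ (adjusted p = 0.0155) and by 0.78 in medium (adjusted p = 0.00703), and its times did not overlap. Of 18 genes of the apoptosome list, limma called 1 under each condition, with medians of -0.23 with IFN-γ and -0.13 in medium. Birc3, an inhibitor of apoptosis protein, fell by 0.58 with IFN-γ (SE 0.12, adjusted p = 0.0385), with 8.31 and 8.34 at 16 hours and 8.82 and 9.00 at 4 hours. Ppif, the mitochondrial cyclophilin of the permeability transition pore, fell by 0.49 in medium (SE 0.10, adjusted p = 0.0334), with 7.26 and 7.19 at 16 hours and 7.74 and 7.70 at 4 hours.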

How the data were processed

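RNA of 8 samples of cultured CD8+ dendritic cells was hybridised to MG-U74Av2 arrays. The authors deposited intensity per probe set on a linear scale, and RMA is named in the submitters' processing notes, whose version is not given in the sources used here. From the deposited values log2 was taken, with no further normalization. Array controls, 66 of 12488 probe sets, did not enter the fit. Genes were named from the platform annotation, matched by gene number to RefSeq: 10833 probe sets had 1 symbol (10817 matched, 0 changed), 396 several and 1193 none listed. Differences were fitted with limma 3.58.1 in R 4.3.3 as 4 group means over 8 arrays (two-sided), adjusted by Benjamini-Hochberg over 12422 probe sets and called at 0.05. Intervals are at 95%. The number of arrays limits precision.

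All family probe sets are named. From the other lists, up to 4 called genes a list and comparison were named, with any other gene chosen after its values were seen. The family and lists were chosen with earlier results of these data known. Replicate numbers pair the arrays as read from the data, not from a label: the 6 correlations between groups of the difference between arrays 1 and 2 were 0.37 to 0.74. The fit was tested on simulated data. Alternatives were quantile normalization, median centring, a pseudocount of 16, the dimmest 40% left out, another prior, only the arrays compared, 1 mean per gene, the replicate block and each array left out; leaving out both 16-hour arrays of a number was added after the data were seen. Where a group kept 1 array, its spread was taken from the other groups. Another promoter pattern that was searched is not reported here.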

Additional observations from a re-analysis of the deposited data

How the results depend on the processing

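Of 1324 values of the 78 family differences under 18 alternatives, 1313 stayed on the same side of the threshold. Of the others, 3 lost the call (all Bcl2l11 99419_g_at over time with IFN-γ), 8 gained it and 0 reversed a call. Of the 78 differences, 45 changed sign at least once, none of them called in the main fit. Bid over time with IFN-γ (-0.43 to 0.12) was among these 45 and among the 8 gains. The gains came only from the replicate block and from leaving out both 16-hour arrays of number 2, as for Bid. That second fit kept 1 array in each 16-hour group, so its gains rest on the spread of the 4-hour groups. The replicate block called 105 probe sets (32 without it) for IFN-γ at 16 hours, 157 (32) at 4 hours, 190 (59) for the mean effect, 30 (0) for its change, 1259 (263) over time with IFN-γ and 1567 (531) in medium; family calls became 1 for IFN-γ at 4 hours, 2 over time with IFN-γ and 2 in medium, and it changed no other family call. The fit of only the 4 arrays compared called 7 for IFN-γ at 16 hours, 93 at 4 hours and 120 over time with IFN-γ, there with 0 of the family. With 1 mean per gene the fit called 20 for IFN-γ at 4 hours and 0 of the family over time with IFN-γ, and leaving out the dimmest 40% also left 0, since the called probe set was not tested. Without both 16-hour arrays of number 1 the 4-hour count was 93. Without those of number 2 the counts were 93 for IFN-γ at 4 hours, 10 at 16 hours, 1902 over time with IFN-γ (3 of the family) and 1159 in medium (2 of the family). Leaving out 1 array gave 10 to 38 for IFN-γ at 16 hours, 8 to 67 at 4 hours, 24 to 81 for the mean effect, 0 to 0 for its change, 27 to 708 over time with IFN-γ (0 to 1 of the family) and 73 to 923 in medium. Quantile normalization split the calls in medium over time into 252 higher and 257 lower, against 212 and 319. More were higher than lower in medium without array 1 of medium at 16 hours (116 and 60), without array 1 (46 and 27) or array 2 (51 and 34) of medium at 4 hours and without both 16-hour arrays of number 1 (317 and 291). With IFN-γ this held without array 1 of IFN-γ at 16 hours (106 and 70) and without both 16-hour arrays of number 1 (171 and 107), against 102 and 161. The causes of these shifts were not tested. Arrays of a group differed more at 16 hours (SD of the difference over probe sets 0.31 with IFN-γ and 0.24 in medium) than at 4 hours (0.18 and 0.17).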
